A study of Rattus norvegicus with 16 samples.

Results

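The mitochondrial ribosomal protein genes of the rat were taken as every gene whose symbol starts with Mrpl or Mrps followed by a digit. The tables hold 66 such symbols among 22861 loci, and 64 of them were tested by the authors in all 4 weeks. Among the tested symbols Mrpl16 alone has a second locus, which was left out for its lower abundance (0.93 to 11.2 FPKM, with log2 fold changes of 1.40, -1.52, -0.11 and 0.91 over the weeks). The remaining 2 symbols, Mrpl30 and Mrpl36, have 2 loci each, were tested in no week, and are listed at 0 in every group except for 1 Mrpl30 locus at 0.0351 FPKM in the 5/6Nx group of week 4.

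Left ventricle was collected from male Sprague Dawley rats that had 5/6 nephrectomy (5/6Nx), which removes most of the kidney tissue and is used as a model of chronic kidney disease, or a sham operation. Both kinds of rat had surgery at 10 weeks of age and ate the same 0.4% Dyets chow. The 8 groups are sham and 5/6Nx at 2, 4, 5 and 7 weeks after surgery, with a separate sham group at each week. A group holds 2 libraries, each a pool of 2 to 3 rats, so the heart of a single animal was not measured.

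The authors' deposited tables hold 1 abundance per group and locus, taken as FPKM, which counts fragments relative to transcript length and library size, and the Cuffdiff p-value with its q-value, the same p adjusted over all loci tested in that week. A gene counts as called where the authors marked it as significant. Values of single libraries were not used here. The uncertainty of a fold change is therefore given as a standard error (SE) derived from the log2 fold change and its deposited p-value. Depth was 23.6 M reads (M, mega) in pool 2 of 5/6Nx at week 7 and 44.5 to 61.8 M in the other libraries, which number 16 with that pool. Between 94.0% and 94.9% of reads mapped, and the share of bases at quality 30 or above was 96.0 to 96.2% in the week 7 libraries against 93.2 to 94.5% at the other weeks. In the week 7 table the sign of the deposited test statistic contradicts that of the fold change at each of 13645 loci, and at weeks 2, 4 and 5 it does so at 0. Every direction given for week 7 follows the column names and would turn if those were exchanged. Under the names as given, all 5 listed genes called at both week 5 and week 7 were above sham in both, for example Nppa, the gene of atrial natriuretic peptide (log2 fold changes of 1.08 and 2.46), and Postn, a matrix gene of activated fibroblasts (1.32 and 3.49). The others were Lyz2, Alas2 and Hba-a2.

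Mitochondria keep a small genome that encodes core subunits of the respiratory chain, and the mitochondrial ribosome translates them at the inner membrane. All proteins of this ribosome are encoded in the nucleus, made in the cytosol and imported. Part of them descend from the bacterial ribosome and the others are particular to mitochondria. Heart muscle depends on oxidative metabolism, and inherited defects of several of these proteins are known to cause cardiomyopathy in infants.

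The 5 promoters printed here were chosen for the values or the motifs of their genes. They are those of Mrps27 and Mrpl27, which had the lowest log2 fold change at weeks 2 and 4, Mrps18b, which holds 3 of the 4 motifs searched, Mrpl46, which starts 234 bases from the oppositely oriented Mrps11, and Mrpl54, among the lowest members at week 7 and none of the motifs. The sequences are from RefSeq, build GRCr8, run 5′ to 3′ along the gene's own strand and hold 250 bases before the start of the gene and 50 from it on. Capitals mark the matches. The regions are chr2:32473954-32474253 (plus strand) for Mrps27, chr10:80092095-80092394 (plus) for Mrpl27, chr20:2842756-2843055 (plus) for Mrps18b, chr1:142116981-142117280 (minus) for Mrpl46 and chr7:9103275-9103574 (plus) for Mrpl54.
Mrps27: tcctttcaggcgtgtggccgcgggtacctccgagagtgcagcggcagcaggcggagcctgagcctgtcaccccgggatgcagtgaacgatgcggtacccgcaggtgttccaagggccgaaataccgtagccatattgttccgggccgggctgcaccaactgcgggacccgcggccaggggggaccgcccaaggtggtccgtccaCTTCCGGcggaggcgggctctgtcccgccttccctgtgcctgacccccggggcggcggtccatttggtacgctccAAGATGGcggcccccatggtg
Mrpl27: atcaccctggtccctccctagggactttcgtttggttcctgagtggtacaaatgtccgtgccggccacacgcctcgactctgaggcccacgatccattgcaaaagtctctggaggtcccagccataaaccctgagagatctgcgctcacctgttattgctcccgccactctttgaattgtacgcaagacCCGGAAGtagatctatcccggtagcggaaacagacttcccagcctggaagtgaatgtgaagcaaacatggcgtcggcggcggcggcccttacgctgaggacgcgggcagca
Mrps18b: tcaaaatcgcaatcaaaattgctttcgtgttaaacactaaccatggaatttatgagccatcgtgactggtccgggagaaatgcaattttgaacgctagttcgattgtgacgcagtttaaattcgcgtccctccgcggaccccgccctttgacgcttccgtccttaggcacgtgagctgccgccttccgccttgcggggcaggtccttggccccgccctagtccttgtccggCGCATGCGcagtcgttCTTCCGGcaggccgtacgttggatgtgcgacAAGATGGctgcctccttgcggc
Mrpl46: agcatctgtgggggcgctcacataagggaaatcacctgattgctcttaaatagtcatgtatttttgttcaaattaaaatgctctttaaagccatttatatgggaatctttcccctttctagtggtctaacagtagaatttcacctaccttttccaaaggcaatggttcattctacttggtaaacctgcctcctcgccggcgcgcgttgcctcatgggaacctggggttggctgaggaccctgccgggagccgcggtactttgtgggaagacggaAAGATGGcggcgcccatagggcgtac
Mrpl54: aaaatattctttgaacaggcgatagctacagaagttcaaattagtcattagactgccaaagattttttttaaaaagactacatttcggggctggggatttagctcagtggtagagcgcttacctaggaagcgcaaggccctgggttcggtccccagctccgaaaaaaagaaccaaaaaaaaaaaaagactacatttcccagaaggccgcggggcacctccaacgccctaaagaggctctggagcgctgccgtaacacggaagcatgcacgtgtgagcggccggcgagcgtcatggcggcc

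The 4 motifs are short cores bound by factors known to act on nuclear genes of mitochondria, and both strands were searched. They are GCATGCG for NRF1, CCGGAAG for ETS factors such as GABPA, AAGGTCA for the ERR receptors and AAGATGG for YY1. Of the 64 members, 50 had a promoter in the RefSeq table. The ETS core was in 16 of the 50 (32.0%) and in 8.75% of all 33469 promoters of the same length. Counts were 13 (26.0%) against 7.01% for the YY1 core, 6 (12%) against 3.33% for the NRF1 core and 3 (6.0%) against 4.61% for the ERR core. None of the 4 motifs was in 22 members (44.0%), against 78.6% of all promoters. That background holds promoters of genes whether or not they are expressed in heart, and it was not matched to the members' abundance. The median GC content was 56.0% in the members' promoters and 51.7% in all. In Mrps27 the ETS core begins 46 bases before the start on the reverse strand and the YY1 core at base 30 after it, and in Mrpl27 the ETS core begins at 61 bases before the start. The NRF1 core of Mrps18b reads the same on both strands with an offset of 1 base, so its 2 matches overlap and the capitals cover 8 bases. A match is a string of letters and not a bound site.

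No member was called at any week. The called share was 0% of 14115 tested loci at week 2, 0.334% of 14085 at week 4, 0.55% of 13627 at week 5 and 1.75% of 13665 at week 7, and among the 64 members the count was 0 at each. At an unadjusted p under 0.05 the members numbered 0 at week 2 (2.77% of all loci, 0.929% below sham), 0 at week 4 (5.47%, 2.17% below) and 0 at week 5 (4.44%, 1.36% below). At week 7 they numbered 4, all below sham (10.8% of all loci, 4.47% below). The smallest q of any member in the authors' deposited tables was 0.0781, for Mrpl38 at week 7.

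Although single genes did not pass, the members lay largely on the same side of sham within a week. All members were measured in the same pools, so they are not replicates, and these counts are descriptions with no test. Below sham were 50 of 64 at week 2 (78.1%), where 54.9% of all loci with a fold change were below. At week 4 it was 63 of 64 (98.4%), with 53.7% of all loci below. At week 5 only 19 were below (49.6% of all loci), while 45, or 70.3%, lay above (50.4%). At week 7 the count below was 56, or 87.5%, beside 51.1% of all loci, and 8 lay above (48.9%). The members are moderately to highly expressed, and among loci in their abundance range the share below sham was 62.2%, 71.3%, 47.2% and 44.5% at the 4 weeks. Abundant transcripts as a whole thus also leaned below sham at week 4, and with fold changes centred on the median of that range 56 members were below at week 4.

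The median log2 fold change of the members was -0.08, -0.17, 0.03 and -0.22 at weeks 2, 4, 5 and 7, beside -0.02, -0.02, 0.00 and -0.01 over all tested loci and -0.03, -0.08, 0.01 and 0.04 over those in the members' abundance range. Centred on the latter, the members' medians were -0.04, -0.09, 0.02 and -0.27. A single member had a median SE of 0.188, 0.165, 0.178 and 0.309. Summed over the 64 members, abundance went from 4976 FPKM in sham to 4722 in 5/6Nx at week 2, from 5313 to 4750 at week 4, from 6431 to 6643 at week 5 and from 4046 to 3542 at week 7. These are differences of -5.09%, -10.6%, 3.29% and -12.4%. Because whole ventricle was sequenced, fewer cells of a type and less RNA per cell cannot be told apart.

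**Figure D1:**
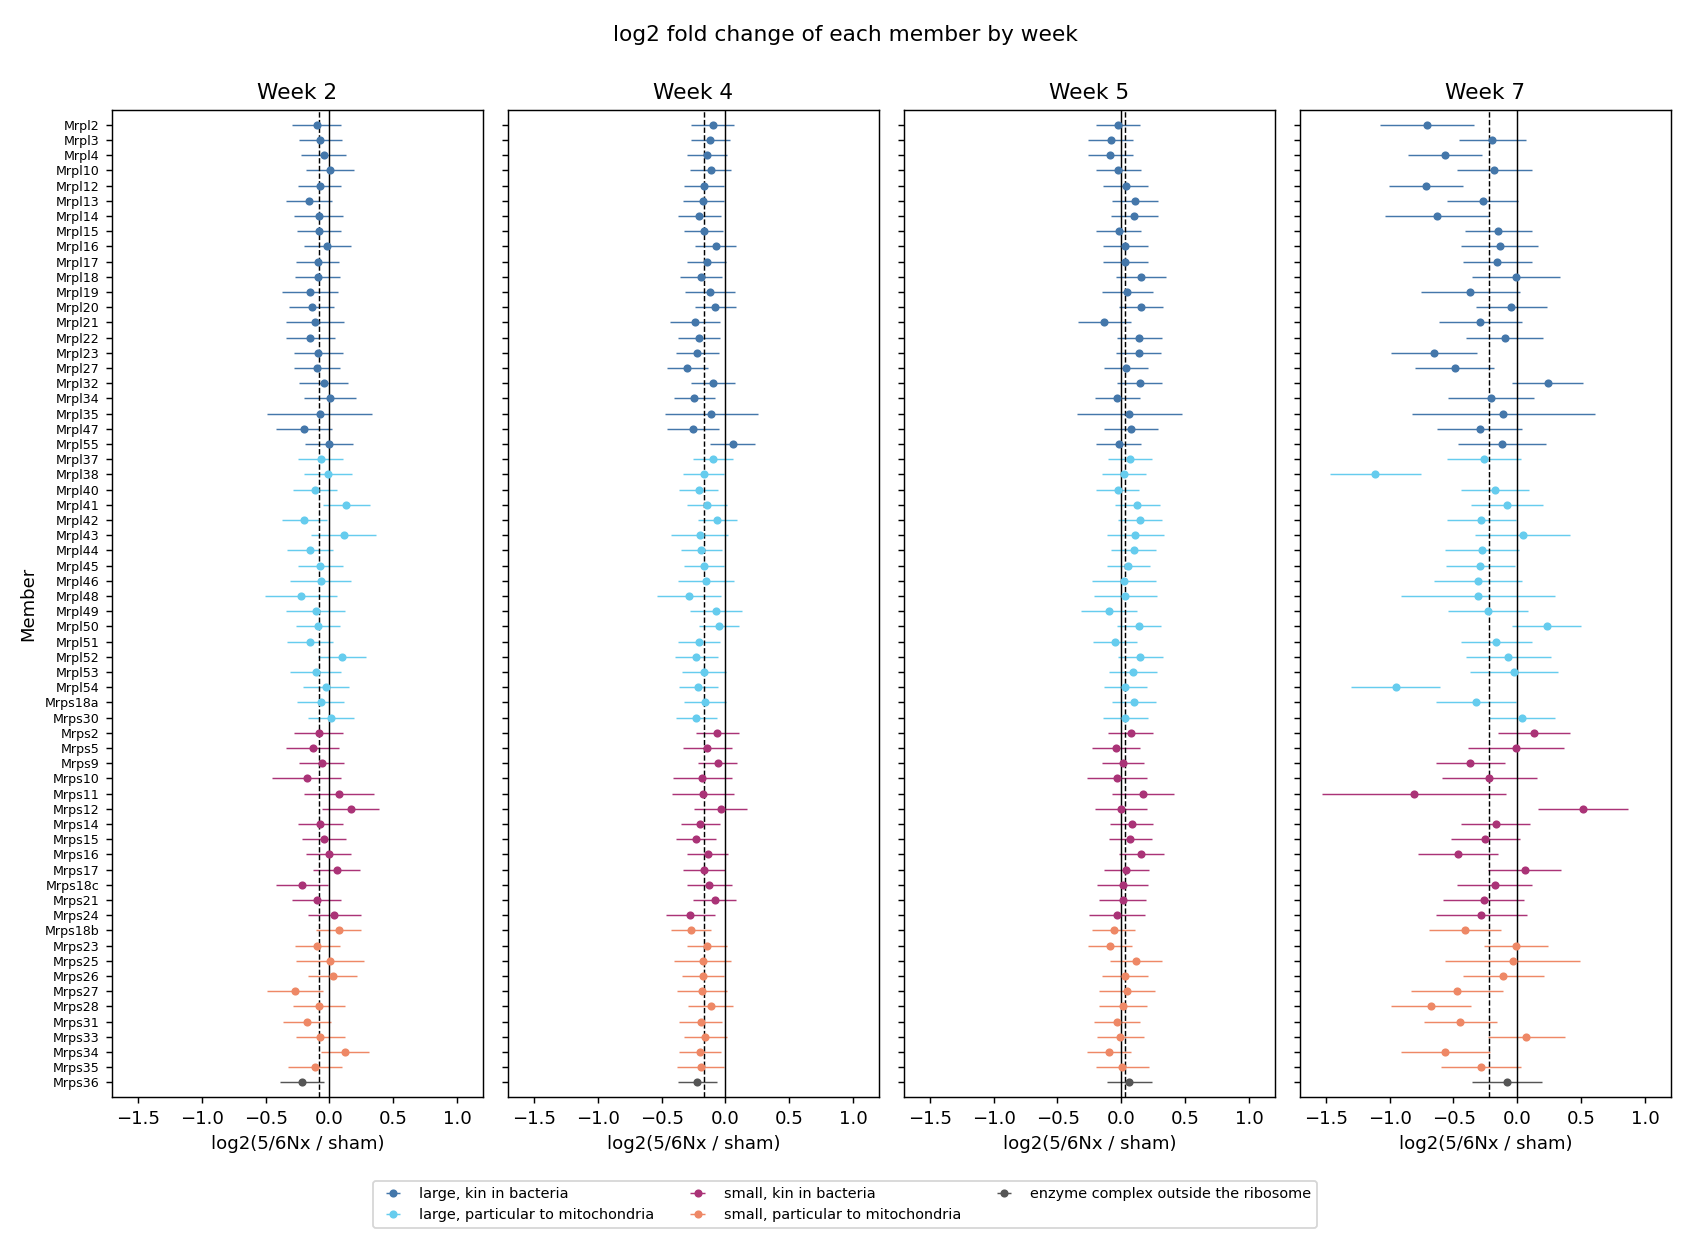
Log2 fold change of 5/6Nx over sham (horizontal axis) for each of the 64 members (vertical axis), 1 panel per week, with colour for subunit and descent. Points are the fold changes from the deposited group FPKM, bars are 1 derived SE to each side, the solid line is 0 and the dashed line is the median of the members (-0.08, -0.17, 0.03 and -0.22). Nearly all points lie left of 0 at week 4, and at week 7 the points spread from -1.11 to 0.52.

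The fold changes of the members were close to each other at weeks 2, 4 and 5. The standard deviation (SD) of their log2 fold changes was 0.092, 0.0668 and 0.0749 at these weeks, beside 0.194, 0.186 and 0.192 among loci in the same abundance range. This is also smaller than the median SE of a single member. Fold changes ran from -0.27 to 0.17 at week 2, from -0.30 to 0.06 at week 4 and from -0.13 to 0.17 at week 5. All 64 members differed from sham by less than 20% at each of these weeks. At week 7 the SD was 0.283 (0.445 in the abundance range), the range was -1.11 to 0.52, and 45 members differed from sham by less than 20%.

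Taken over the 4 weeks, 33 members were below sham at weeks 2, 4 and 7 and above it at week 5, a pattern held by 7.36% of the 12123 loci with a fold change in every week. They are Mrpl12, Mrpl13, Mrpl14, Mrpl16, Mrpl17, Mrpl18, Mrpl19, Mrpl20, Mrpl22, Mrpl23, Mrpl27, Mrpl35, Mrpl37, Mrpl38, Mrpl42, Mrpl44, Mrpl45, Mrpl46, Mrpl47, Mrpl48, Mrpl53, Mrpl54, Mrps9, Mrps14, Mrps15, Mrps16, Mrps18a, Mrps18c, Mrps21, Mrps27, Mrps28, Mrps35 and Mrps36. Another 12 were below sham at all 4 weeks, as were 16.1% of all loci. These are Mrpl2, Mrpl3, Mrpl4, Mrpl15, Mrpl21, Mrpl40, Mrpl49, Mrpl51, Mrps5, Mrps10, Mrps23 and Mrps31. No member was above sham at all 4 weeks, against 12.7% of all loci. These counts rest on the direction of week 7, and with its column names exchanged 3 members (Mrpl32, Mrpl50 and Mrps2) would hold the first pattern and 1 (Mrps33) would be below at all 4 weeks. In the remaining members at least 1 of weeks 2, 4 and 7 was above sham: Mrpl10, Mrpl34, Mrpl41, Mrpl52, Mrps11, Mrps18b, Mrps24, Mrps25, Mrps26 and Mrps34 at week 2 alone, Mrpl43, Mrps12, Mrps17 and Mrps30 at weeks 2 and 7, Mrpl32, Mrpl50, Mrps2 and Mrps33 at week 7 alone, and Mrpl55 at week 4 alone.

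Whether a gene's fold change differed between the weeks was tested by the heterogeneity of its 4 log2 fold changes over their SE (chi-square with 3 degrees of freedom, Benjamini-Hochberg over 12120 loci). No member passed an adjusted p of 0.05, as 0.198% of all loci did. Before adjustment Mrpl38 was the 1 member under 0.05, as were 3.55% of all loci. The turn between week 4 and week 5 in the pattern above is therefore not shown for any single gene.

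By level, the most abundant member was Mrps36, at 228 to 355 FPKM over the 8 groups. Despite its symbol, the protein is now known as a subunit of the 2-oxoglutarate dehydrogenase complex of the citric acid cycle, and it is not counted with either ribosomal subunit here. Mrpl42 (178 to 265 FPKM), Mrpl13 (164 to 242), Mrpl54 (23.0 to 281) and Mrpl15 (160 to 209), all of the large subunit, came next by mean level. At the low end stood Mrps2 (18.1 to 26.5 FPKM), Mrps10 (16.6 to 29.7) and Mrps5 (23.1 to 30.6) of the small subunit. Levels of the least and most abundant members thus differed by far more than any group did from its sham.

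**Figure D2:**
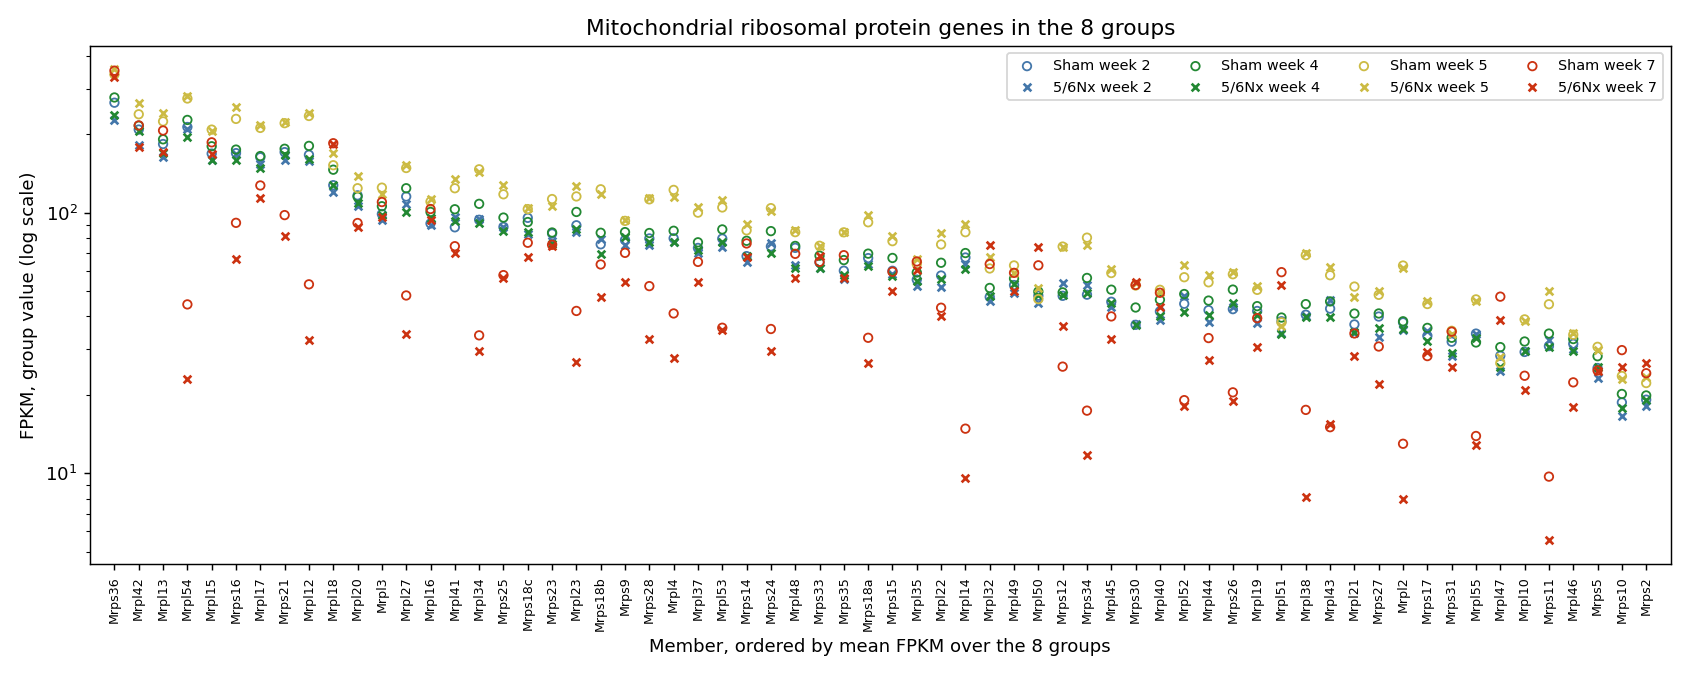
Group FPKM on a log scale (vertical axis) for the 64 members ordered by mean level (horizontal axis). Circles are sham and crosses 5/6Nx, coloured by week, and each point is the authors' single value for a group of 2 pools, from a table of its own for each week. Values of week 5 lie mostly above those of weeks 2 and 4, as in Mrpl2 and Mrpl38, while in week 7 some members, such as Mrpl54 and Mrpl14, lie far below their other values in sham and 5/6Nx alike.

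By subunit, the 40 large-subunit members had medians of -0.08, -0.17, 0.04 and -0.22 at weeks 2, 4, 5 and 7, and the 23 small-subunit members -0.07, -0.17, 0.01 and -0.25. Below sham were 34 of 40 and 15 of 23 at week 2, 39 and 23 at week 4, 11 and 8 at week 5, and 36 and 19 at week 7. Members classed here with kin in bacteria (35) had medians of -0.08, -0.15, 0.03 and -0.20. Those classed here as particular to mitochondria (28), Mrps28 among them, had -0.07, -0.18, 0.03 and -0.27. The class of single proteins such as Mrps28 was not checked, and differences between these classes were not tested.

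In the stalk that recruits translation factors to the large subunit, Mrpl12 (chr10:109251299-109255803, rn5) stood at 167, 181, 236 and 53.2 FPKM in sham and 159, 161, 241 and 32.4 FPKM in 5/6Nx at weeks 2, 4, 5 and 7. Its log2 fold change was -0.07 ± 0.17, -0.17 ± 0.15 and 0.03 ± 0.18 (SE) at the first 3 weeks and -0.72 ± 0.29 at week 7. The week 7 value was below sham with q = 0.265 by Cuffdiff in the authors' deposited table, so it was not called. Mrpl10, which anchors the stalk, differed from sham by less than 1 SE at every week (0.01, -0.11, -0.02 and -0.18).

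Around the centre that forms peptide bonds and the tunnel through which the peptide leaves, Mrpl2, Mrpl3, Mrpl4 and Mrpl27 were examined, which in bacteria have counterparts at these sites. Mrpl27 (chr10:82194188-82199949) had the lowest value of all members at week 4, 124 FPKM in sham and 101 in 5/6Nx, a log2 fold change of -0.30 ± 0.16 (q = 0.951 by Cuffdiff). Mrpl2 was below sham at all 4 weeks, with -0.10 ± 0.19, -0.10 ± 0.17, -0.03 ± 0.17 and -0.71 ± 0.37, and its week 7 level was 12.98 FPKM in sham and 7.95 in 5/6Nx. Mrpl4 was also below in each week (-0.04 ± 0.18, -0.14 ± 0.16, -0.09 ± 0.17 and -0.56 ± 0.29), ending at 41.1 and 27.8 FPKM. Mrpl21, another protein with kin in bacteria and below at all weeks, had the lowest value of week 5, -0.13 ± 0.21, and Mrpl49 the next at -0.10 ± 0.22. Neither of these week 5 values exceeds its SE.

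The large-subunit genes Mrpl3 and Mrpl44 are known from inherited cardiomyopathy. Mrpl3 stood at 98.97, 106, 125 and 110 FPKM in sham and 94.2, 97.7, 118 and 96.1 FPKM in 5/6Nx, below sham in each week and within 1 SE of it (-0.07, -0.12, -0.08 and -0.20). Mrpl44 had log2 fold changes of -0.15 ± 0.18, -0.19 ± 0.16, 0.10 ± 0.18 and -0.28 ± 0.29. Mrpl45, which lies at the tunnel exit and holds the ribosome to the inner membrane, had -0.07 ± 0.18, -0.17 ± 0.15, 0.05 ± 0.17 and -0.29 ± 0.27. All 3 lay within 1 SE of the median of the members in each week.

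Among large-subunit proteins particular to mitochondria were the 2 lowest values of all. Mrpl38 (chr10:103596415-103603249) had 40.6, 44.6, 68.8 and 17.5 FPKM in sham and 40.3, 39.7, 70.0 and 8.09 in 5/6Nx. The first 3 weeks gave log2 fold changes of -0.01 ± 0.19, -0.17 ± 0.16 and 0.02 ± 0.17, and week 7 gave -1.11 ± 0.36, with q = 0.0781 by Cuffdiff, which missed the authors' threshold of 0.05. The 95% interval from the SE at week 7 ran from -1.81 to -0.42. Mrpl54 (chr7:11487004-11490985) went from 44.5 FPKM in sham to 23.0 in 5/6Nx at week 7 (-0.95 ± 0.35, q = 0.169 by Cuffdiff). At the earlier weeks it stood at -0.03 ± 0.18, -0.21 ± 0.15 and 0.03 ± 0.17.

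Mrpl48, whose locus overlaps that of Rab6a, was among the lowest 3 at weeks 2 and 4 (-0.22 ± 0.29 and -0.28 ± 0.25). Mrpl41 stood at 0.13 ± 0.18 at week 2, among the highest 3 there, and at -0.14 ± 0.16 at week 4. Mrpl50 and Mrpl32 were the highest of the large subunit at week 7, at 0.23 ± 0.27 and 0.24 ± 0.28. At week 4 the single member above sham was Mrpl55 (0.06 ± 0.17), and Mrpl50 (-0.05 ± 0.16) was among the highest. Mrpl20 was among the highest 3 at week 5 (0.16 ± 0.17), a week in which Mrpl18, of a family that binds the 5S RNA in bacteria, had 0.15 ± 0.20. None of the values above sham in this group exceeded it by more than 1 SE.

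In the small subunit, Mrps12, a protein of the decoding site, was the highest member at weeks 2 and 7. Its FPKM was 48.0, 49.5, 74.2 and 25.7 in sham and 53.9, 48.2, 74.2 and 36.7 in 5/6Nx, with log2 fold changes of 0.17 ± 0.22, -0.04 ± 0.21, 0.00 ± 0.20 and 0.52 ± 0.35 (q = 0.691 at week 7 by Cuffdiff). The locus overlaps that of Sars2, the seryl-tRNA synthetase of mitochondria, which had 1.83 FPKM in sham and 0.70 in 5/6Nx at week 7 (-1.39 ± 1.16). How the counting divided reads between them was not tested. Mrps28 was the small-subunit member nearest to a call at week 7, at 52.3 FPKM in sham and 32.8 in 5/6Nx (-0.68 ± 0.31, q = 0.395 by Cuffdiff).

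Mrps27, a pentatricopeptide repeat protein, was the lowest member at week 2, at 40.0 FPKM in sham and 33.2 in 5/6Nx (-0.27 ± 0.22, q = 1.0 by Cuffdiff), and had -0.19 ± 0.20, 0.05 ± 0.22 and -0.47 ± 0.36 afterwards. Mrps36 was also among the lowest 3 at week 2 with -0.21 ± 0.17 and gave -0.22 ± 0.15, 0.06 ± 0.18 and -0.08 ± 0.27 at the later weeks. Mrps24, which shares its locus with Urgcp so that the value belongs to both, was among the lowest at week 4 (-0.28 ± 0.19). Mrps34 was among the highest at week 2 (0.12 ± 0.19) and the lowest at week 5 (-0.09 ± 0.17). Mrps11 and Mrps16 led week 5 at 0.17 ± 0.24 and 0.16 ± 0.17. Both were below sham at week 7, Mrps11 at -0.81 ± 0.72 and Mrps16 at -0.47 ± 0.31, and neither value was called.

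Mrps31 was below sham in every week (-0.18 ± 0.19, -0.19 ± 0.17, -0.03 ± 0.18 and -0.45 ± 0.28), as were the low-level Mrps10 (-0.18 ± 0.27, -0.18 ± 0.23, -0.03 ± 0.23 and -0.22 ± 0.37) and Mrps5 (-0.13, -0.14, -0.04 and -0.01). Mrps2 was above sham at weeks 5 and 7 (0.07 ± 0.18 and 0.13 ± 0.28). The symbols Mrps18a, Mrps18b and Mrps18c derive from the bacterial protein S18, and under the present naming of subunits Mrps18c alone is counted with kin in bacteria. Mrps18b had 0.07 ± 0.17, -0.27 ± 0.16, -0.06 ± 0.17 and -0.41 ± 0.28, Mrps18c -0.21 ± 0.20, -0.13 ± 0.18, 0.01 ± 0.20 and -0.18 ± 0.30, and Mrps18a, whose protein sits in the large subunit, -0.07 ± 0.19, -0.16 ± 0.16, 0.10 ± 0.17 and -0.32 ± 0.31. Mrps30, another protein of the large subunit despite its symbol, had 0.01 ± 0.18, -0.23 ± 0.16, 0.03 ± 0.18 and 0.04 ± 0.26.

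**Figure D3:**
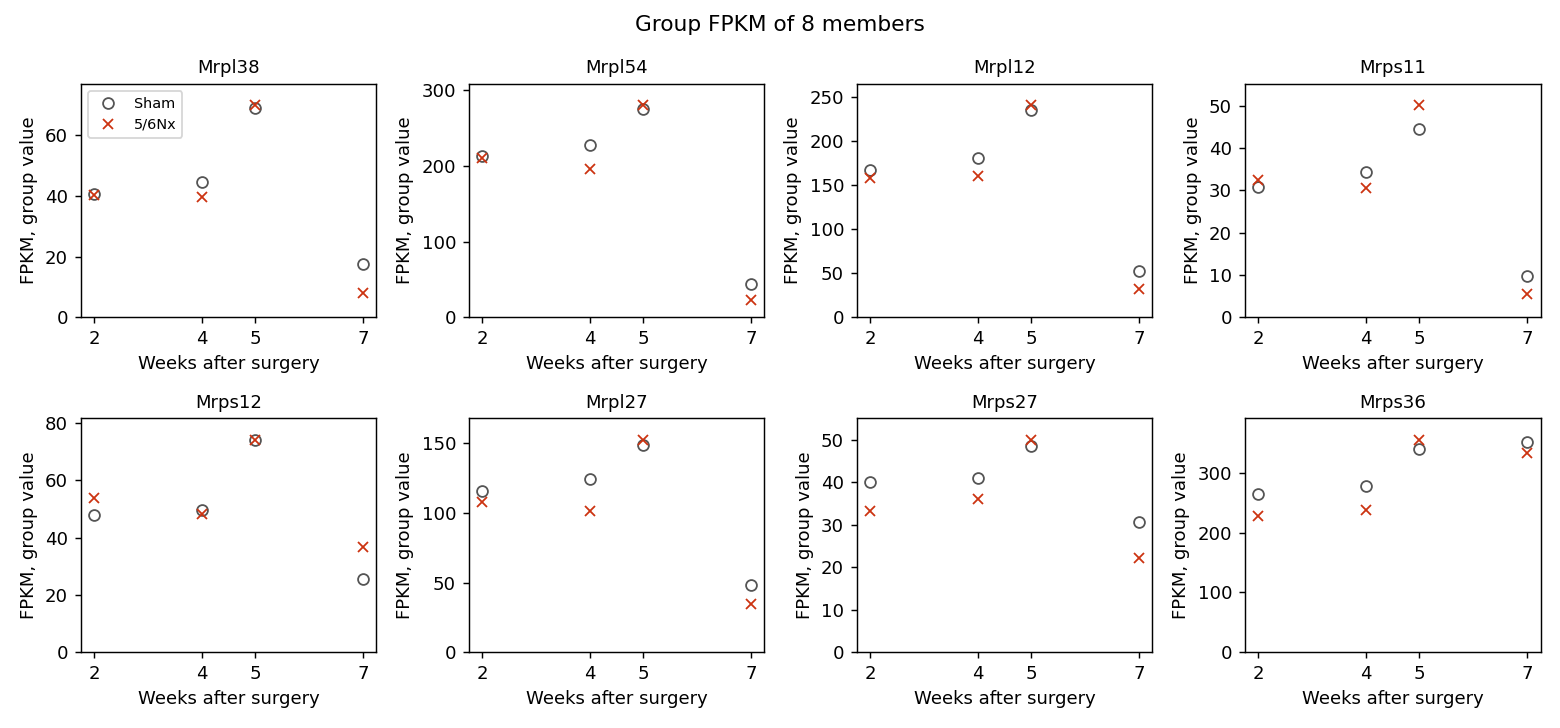
Group FPKM (vertical axis, from 0) at each week after surgery (horizontal axis) for 8 members with the lowest or highest values or the highest level. Circles are sham, crosses are 5/6Nx, and each point is 1 group value of the authors with no error in the tables. Mrpl38, Mrpl54, Mrpl12, Mrps11, Mrps12, Mrpl27 and Mrps27 are lower in both groups at week 7 than at the other weeks, and Mrps36 is not.

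Week 7 differed from the other weeks in the sham groups too. The comparison sets levels from separate tables side by side, and the sources used here do not say whether the weeks share a scaling. Sham levels of the 64 members correlated across genes with Pearson's r of 0.98 to 1.00 among weeks 2, 4 and 5, and of 0.65 to 0.73 between these and week 7. The log2 ratio of sham at week 7 to the mean sham of weeks 2, 4 and 5 ran from -2.42 (Mrpl54) to 0.75 (Mrpl47) over the members, with a median of -0.41 and an SD of 0.765. The corresponding SD was 0.0677 for sham at week 2 over week 4. Sham at week 5 over weeks 2 and 4 had a median of 0.31 and an SD of 0.167 over the members, and a median of -0.02 over all loci. Over all 11423 loci above 1 FPKM, not matched to the members' abundance, the week 7 ratio had a median of 0.02 and an SD of 0.934. A lower level in week 7 sham was not particular to the members. Summed cytosolic ribosomal proteins held 43710 FPKM there, against 87390 to 89645 in the earlier shams. Nuclear subunits of respiratory complex I held 21275 FPKM against 27092 to 34569. Genes of mitochondrial transcription and RNA stability were not lower, at 610 FPKM against 598 to 736. The share of bases at quality 30 or above set the week 7 libraries apart, as given above. The week 7 sham pools held 49.8 and 51.1 M reads, and pool 2 of 5/6Nx at that week 23.6 M. The part of quality or depth in these levels was not tested.

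A group of 20 members was at least 2-fold lower in sham at week 7 than in the earlier shams, as were 17.3% of the 11423 loci. No member was 2-fold higher, as 8.89% of those loci were. These are Mrpl2, Mrpl4, Mrpl12, Mrpl14, Mrpl23, Mrpl27, Mrpl34, Mrpl38, Mrpl43, Mrpl52, Mrpl53, Mrpl54, Mrpl55, Mrps11, Mrps12, Mrps16, Mrps18a, Mrps24, Mrps26 and Mrps34. Their median log2 fold change at week 7 was -0.48 (18 of 20 below sham), while that of the other 44 was -0.18 (38 below). At weeks 2, 4 and 5 the medians of the 20 were -0.01, -0.18 and 0.03. Over all loci, the 1973 that were at least 2-fold lower in sham had a median of -0.28 at week 7 with 73.8% below, and the 8435 within 2-fold had 0.03 with 46.4% below. Across the 64 members the week 7 fold change and the sham ratio had a Pearson's r of 0.52 (Spearman's rho 0.43), and 0.40 without Mrpl38, Mrpl54 and Mrpl12. Over all 11423 loci it was 0.22. The sham value of week 7 enters both measures, as the denominator of the fold change and the numerator of the sham ratio. The part of this shared value in r was not tested, nor that of any effect common to the week 7 libraries.

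**Figure D4:**
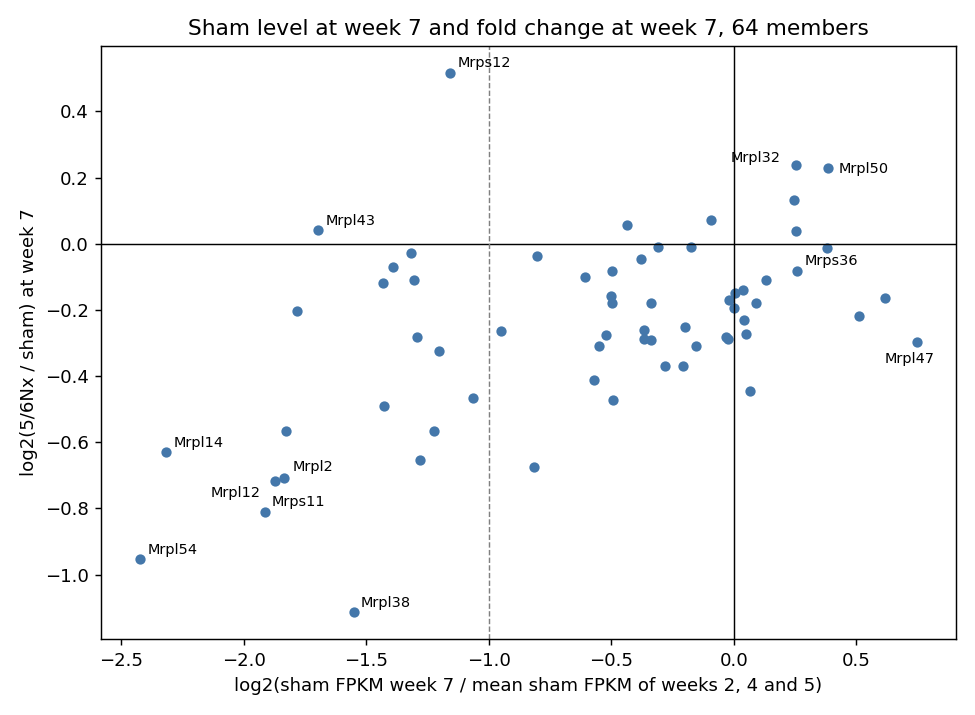
Log2 fold change of 5/6Nx over sham at week 7 (vertical axis) against the log2 ratio of sham at week 7 to the mean sham of weeks 2, 4 and 5 (horizontal axis) for the 64 members, with the solid lines at 0. The dashed line marks a 2-fold lower level, which 20 members pass. The members with the lowest fold changes, Mrpl38, Mrpl54 and Mrps11, lie to its left, and so does Mrps12, which has the highest (0.52).

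Promoter motifs and the fold changes were set side by side. The 16 members with the ETS core had a median of -0.18 at week 4 and -0.29 at week 7, where 16 of 16 were below sham. The 34 without it had -0.16 and -0.18, with 28 below at week 7. For the 13 with the YY1 core the medians were -0.16 and -0.26, with 10 below at week 7. For the 37 without it they were -0.17 and -0.18, with 34 below. With the NRF1 core, 6 members had -0.17 and -0.17, with 5 below, and the 44 without it -0.17 and -0.22, with 39 below. Across the 50 members with a promoter, GC content had a Pearson's r of -0.05 with the week 7 fold change and -0.20 with the week 7 sham ratio, which are weak. These are descriptions with no test.

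Divergent neighbours offered another view of the promoters. Of the members, 16 start within 1000 bases of an oppositely oriented gene in RefSeq, such as Mrpl27 (44 bases from Eme1), Mrpl51 (50 bases from Ncapd2), Mrps18c (72 bases from Helq) and Mrps27 (91 bases from Ptcd2). Mrps27 and Ptcd2, which encodes another pentatricopeptide repeat protein, had close values, -0.27 and -0.24 at week 2, -0.19 and -0.05 at week 4, 0.05 and 0.08 at week 5, and -0.47 and -0.46 at week 7, but their loci overlap in the tables. Other pairs lay on opposite sides of sham, such as Mrps18b and Ppp1r10 at week 7 (-0.41 and 0.45). So did Mrpl41 and Pnpla7 at week 2 (0.13 and -0.11), week 4 (-0.14 and 0.17) and week 5 (0.12 and -0.19). None of these values was called, and differences within pairs were not tested. Mrpl47 and Ndufb5, a complex I gene 244 bases away, had -0.20 and -0.17, -0.25 and -0.24, 0.07 and -0.06, and -0.30 and -0.19. Mrpl46 and Mrps11 share coordinates in the tables (chr1:141445108-141462799). At week 7 they had -0.31 ± 0.34 and -0.81 ± 0.72, values whose ranges of 1 SE overlap. Over 10 pairs with a tested partner that is no member, the partner was below sham in 9, 8, 6 and 7 pairs and the member in 8, 10, 4 and 9.

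Genes that work with the mitochondrial ribosome showed no calls either. The 7 further subunits without an Mrp symbol, among them Dap3 and Ptcd3 of the small subunit, had medians of -0.06, -0.16, 0.06 and -0.14, with 7 of 7 below sham at week 4. Of 13 translation factors, 9 were tested, and 7 of them were below sham at week 7 (median -0.22). Tufm, the elongation factor that delivers tRNA, had 85.9 FPKM in sham and 57.2 in 5/6Nx at that week, with a q of 0.404 by Cuffdiff. The 18 tested assembly factors had medians of -0.06, -0.10, -0.04 and -0.27 (15 below at week 7). The 17 tested aminoacyl-tRNA synthetases and related enzymes, which charge the tRNAs, had -0.09, -0.12, -0.05 and -0.43. Of these, 14 were below sham at week 7, with Lars2 at -0.82 ± 0.30 (q = 0.161 by Cuffdiff).

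The 14 genes of mitochondrial transcription and RNA stability were below sham in 14, 12, 7 and 10 cases. Tfam, which packages mitochondrial DNA and starts its transcription, had -0.14, -0.14, -0.07 and -0.17, and Lrpprc, which stabilises mitochondrial mRNA, -0.15, -0.20, -0.07 and -0.39. Of the 9 regulators of nuclear genes for mitochondria, 0 were called. Nrf1 had -0.04, 0.17, -0.08 and -0.06, Gabpa -0.13, -0.04, -0.22 and 0.10, and Yy1 0.13, -0.01, -0.04 and 0.28. Esrra, the receptor that binds the ERR core, had -0.06, -0.25, -0.08 and -0.79, with 8.75 FPKM in sham and 5.07 in 5/6Nx at week 7 (q = 0.836 by Cuffdiff). Myc, a growth regulator, stood at 1.15 ± 0.41 at week 7 and was not called (q = 0.144).

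Complex I, the first enzyme of the respiratory chain, joins subunits made on mitochondrial ribosomes with nuclear ones. Its nuclear subunits were taken by gene symbol alone, Ndufa4 included, and the place of each protein was not checked. The 33 tested genes were below sham in 33, 33, 16 and 30 cases, with medians of -0.11, -0.17, 0.00 and -0.23. Of them 1, Ndufa11, was called lower at week 7, going from 165 to 73.2 FPKM (log2 fold change -1.17, q = 0.0261 by Cuffdiff). The cytosolic ribosomal proteins, which build the ribosome of the cytosol, were below sham in 57, 71, 1 and 21 of the 71 with a fold change, with medians of -0.08, -0.15, 0.15 and 0.13. Rps6 was also tested and called at week 4, at 1.85 FPKM in sham and listed at 0 in 5/6Nx, so it has no fold. In that list Rpl3l, a form of muscle, fell at week 7 (-1.21, q = 0.00564 by Cuffdiff). At week 7 the median of the mitochondrial set was thus -0.22 where that of the cytosolic set was 0.13, and the difference between these sets was not tested.

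**Figure D5:**
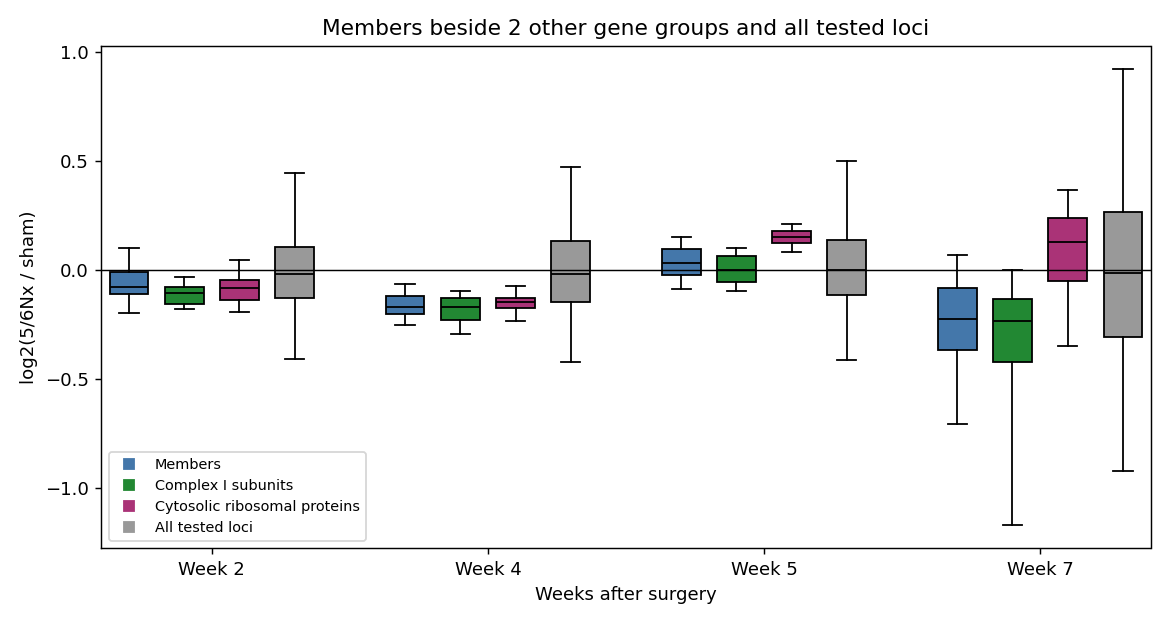
Log2 fold change of 5/6Nx over sham (vertical axis) by week (horizontal axis) for the 64 members, 33 genes taken by symbol as complex I subunits, 71 cytosolic ribosomal proteins and all tested loci. Boxes span the quartiles with a line at the median, and whiskers run from the 5th to the 95th percentile of genes. The medians of the members and of complex I lie close together at each week (-0.22 and -0.23 at week 7), and the cytosolic set lies above both at weeks 5 and 7.

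Markers of cell types differed in the same comparisons, and their part in the members' values was not tested. The tissue label holds for heart muscle, whose 8 tested marker loci (Myh6 and Myh7 share 1) were all above 92 FPKM in every sham group, and no tested marker of any cell type list was at 0. These cardiomyocyte markers were below sham in 8, 8, 6 and 8 cases, none called, with medians of -0.16, -0.19, -0.09 and -0.50. Their summed level ran from 51266 to 111471 FPKM over the sham groups and from 39850 to 110116 over the 5/6Nx groups, lowest at week 7 in both. Medians of 6 fibroblast markers were 0.39, 0.52, 0.46 and 0.56, with 0, 3, 1 and 1 called higher. The 5 macrophage markers had 0.37, 0.30, 0.32 and 1.2, with 3 called higher at week 7, where their sum went from 158 to 695 FPKM. All 3 red cell markers were above sham in every week, with medians of 0.29, 0.28, 1.16 and 1.11 and 0, 0, 3 and 2 called. The 4 tested endothelial markers had medians of 0.02, 0.24, 0.02 and 0.22. Atrial markers had medians of -0.32, -0.93, 0.28 and -1.31. Among them Myl7 and Sln were called lower at week 4 and Myl7 and Bmp10 at week 7, while Nppa was called higher at weeks 5 and 7. Fat cell markers had -0.48, -1.46, -2.33 and -0.76, with 3 called lower at week 4 and 3 at week 5, and the week 7 median rests on 2 tested genes. The 5 genes taken for mitochondrial content (Cs, Vdac1, Tomm20, Hspd1 and Cox4i1) had medians of -0.13, -0.16, -0.07 and -0.17, near those of the members except at week 5.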

How the data were processed

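RNA of left ventricle was sequenced in pairs with a stranded total RNA kit on an Illumina HiSeq, per the labels' protocols. Build rn5 and the tools TopHat2 2.0.10, Cufflinks 2.0.10, cutadapt and Cuffdiff are listed, without roles, per the submitters' processing notes. The authors deposited, per week, 1 abundance per group and locus, taken as FPKM from the named tool since the header says only abundance. They also deposited a p-value, a q-value and a test statistic, which is a score. A further table deposited by the authors gives the count of reads and the percent of bases at quality 30 and of reads mapped.

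Log2 ratios carry no pseudocount. Each SE is the size of the log2 fold change divided by the normal quantile of its two-sided p. It stands for Cuffdiff's model of the variation among pools and not for that among rats. The tables hold no column per library, so the authors' test stood in place of a limma fit. At week 7, 313 rows that repeated a locus were joined. Where the text names single members, they are the 3 highest and 3 lowest of each week, the 5 most and 3 least abundant, members below in all weeks, and fixed genes for their roles. Mrps28, Mrpl14, Mrpl47 and the list genes were named after their values were seen. The role genes Mrpl11, Mrps22 and Mrpl58 are not among the members. The members and lists were chosen with earlier results of these data known. Of the members, 19 lie at a locus that overlaps another, 2 share a locus with another gene, and 21 have pseudogenes in RefSeq (29 in all), so reads may be split. Coordinates of loci are rn5, those of promoters GRCr8. Tools were Python 3.11.15, pandas 2.3.3, numpy 2.4.6, scipy 1.17.1 and matplotlib 3.10.9. The calculation of the test between weeks was run on simulated data whose noise was drawn from the derived SE. The shift added there to some loci was larger than any fold change of a member. That run cannot show whether the SE are right or whether changes as small as the members' would be found.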

Additional observations from a re-analysis of the deposited data

How the results depend on the processing

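Of 77 alternatives tried, 74 kept the direction and the side of the threshold. The alternatives covered another q threshold, adjustment over loci of at least 1 FPKM, a pseudocount of 1 FPKM, single-symbol loci and all member loci. Others were members of at least 1 FPKM, 2 ways of centring, 7 further subunits added, weeks left out and the week 7 direction of the test statistic. The floor of 1 FPKM left out no member, so it could not change the members' counts or medians. Single-symbol loci and all member loci changed the set little. With q under 0.10, 1 member, Mrpl38, was called at week 7. With the direction of week 7 taken from the sign of the test statistic, the median became 0.22 and 8 members were below sham. All 5 listed genes called at both week 5 and week 7, Nppa, Postn, Lyz2, Alas2 and Hba-a2, lay above sham in both under the column names and would lie on opposite sides with the names exchanged. Centring on loci in the members' abundance range moved the medians of weeks 2 and 4 to -0.04 and -0.09. No paired analysis was possible because the tables hold 1 value per group and no column per library, and no pool could be left out for the same reason. An SE derived from 2 pools of rats limits what a single gene can show, most at week 7, where 1 library held 23.6 M reads.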
